A study of Mus musculus with 2 samples.

Results

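Zymosan is a yeast cell wall preparation, and the genes described here encode its receptors and the first proteins that carry their signal: Clec7a, Clec4n, Tlr1, Tlr2, Tlr4, Tlr6, Cd14, Card9, Syk and Myd88. They were chosen by symbol under a rule that used no measured value, though earlier results of these data were known. By symbol, 9 of the 10 were found among the 31053 genes of both gene tables. Clec7a was not analysed here. Total cells of the peritoneal cavity were profiled by single-cell RNA sequencing (10x Genomics 3′ v2 chemistry) in mice 10 to 14 weeks old, 3 days after 1 mg of zymosan was injected into the cavity of each animal. The Cd36-/- library came from the strain labelled LysM-Cre (x) floxed CD36, in which Cre is driven from the lysozyme M locus, active in macrophages, neutrophils and other myeloid cells. The fl/fl library came from the strain labelled floxed CD36. Both strains carried the floxed allele and both received zymosan, so an untreated cavity was not part of the comparison. Each library was a pool of 4 replicates, which leaves 1 library per group and no spread between animals. No test was therefore run between the libraries, and every interval below is an exact 95% interval that covers counting error only.

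Particles of yeast cell wall are sensed by C-type lectin receptors and by Toll-like receptors. Dectin-1 (Clec7a) binds beta-glucan and Dectin-2 (Clec4n) binds mannan, and both signal through the kinase Syk and the adaptor Card9 to the transcription factor NF-kappaB. Toll-like receptor 2 works as a pair with either Tlr1 or Tlr6 and signals through the adaptor Myd88, and the scavenger receptor Cd36 is known as a partner of the pair with Tlr6. Cd14 hands ligands to Tlr2 and to Tlr4, which is best known as the receptor for bacterial lipopolysaccharide. In the peritoneal cavity these genes are known above all from macrophages and neutrophils.

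The libraries held 16543 barcodes with 116600732 UMIs (unique molecular identifiers, each counting 1 captured RNA molecule) for Cd36-/- and 15537 barcodes with 117238057 UMIs for fl/fl, and 15023 and 14005 cells were used. A total of 383 barcodes occurred in both libraries. Cells were clustered here without the 9 genes, and clusters were named from marker lists, so each class name means "like" that type. There were 9877 Cd36-/- and 7833 fl/fl macrophages, and each of their 9 markers, among them Adgre1 and C1qa, exceeded 20 CPM (UMIs per 1000000 UMIs of the class) in both. They divided into large peritoneal macrophages (LPM, the resident type, with the transcription factor gene Gata6 at 122 and 124 CPM), Gata6-low macrophages (31.2 and 30.9 CPM) and a small Retnla-led group named from markers of MHC class II macrophages. Neutrophils were few (105 and 134 cells) and shallow, with a median of 719 UMIs (Cd36-/-) and 909.5 UMIs (fl/fl) a cell, against 8013 and 9031 in macrophages. Another 586 and 450 cells lay in 4 unnamed clusters. Which exons of Cd36 are floxed is not labelled, and a 3′ tag outside the deleted stretch checks nothing. Cd36 itself had 172 CPM in Cd36-/- macrophages and 243 CPM in fl/fl macrophages.

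Promoter sequences show where the genes that the comparisons turn on begin. They are RefSeq sequences of build GRCm38.p6, 250 bases before to 50 after an annotated start. From that table, 9 starts of 6 of the 9 genes were read here (Card9, Myd88, Syk, Tlr1, Tlr2 and Tlr6). The Tlr2 promoter lies at chr3:83841559-83841858 and that of an annotated Tlr6 start at chr5:64959999-64960298, both on the minus strand. Capitals mark letters that match GGG, then 3 bases of any kind, then TTCC, one written form of the NF-kappaB site, searched on both strands.
Tlr2: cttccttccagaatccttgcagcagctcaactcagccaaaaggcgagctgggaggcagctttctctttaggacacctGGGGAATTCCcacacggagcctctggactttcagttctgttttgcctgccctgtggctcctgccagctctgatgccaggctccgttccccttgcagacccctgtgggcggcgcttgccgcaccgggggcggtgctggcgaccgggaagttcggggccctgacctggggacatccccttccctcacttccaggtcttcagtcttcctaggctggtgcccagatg
Tlr6: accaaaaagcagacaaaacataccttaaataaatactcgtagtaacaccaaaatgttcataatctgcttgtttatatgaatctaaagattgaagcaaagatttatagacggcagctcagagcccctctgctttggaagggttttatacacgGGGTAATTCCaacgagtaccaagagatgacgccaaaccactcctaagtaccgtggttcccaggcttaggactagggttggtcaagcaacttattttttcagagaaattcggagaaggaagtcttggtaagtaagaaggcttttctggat
The match began 173 bases before the start in Tlr2 and 99 bases before it in Tlr6, and 5.56% of the 32851 promoters in the table held at least 1 match. The other 7 of the 9 starts held none: those of Card9 and Myd88, both of Syk, both of Tlr1 and a second Tlr6 start. The first annotated Syk start, at chr13:52583187-52583486 on the plus strand and without a match to this pattern, is shown because Syk differed most between the libraries in macrophages.
Syk: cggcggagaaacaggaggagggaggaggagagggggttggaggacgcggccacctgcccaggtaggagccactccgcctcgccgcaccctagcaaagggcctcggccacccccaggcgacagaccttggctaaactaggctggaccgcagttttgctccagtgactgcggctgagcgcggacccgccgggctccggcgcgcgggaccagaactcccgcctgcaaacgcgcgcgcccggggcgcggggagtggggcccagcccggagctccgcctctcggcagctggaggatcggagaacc
A looser pattern that includes the first, GGG, then 5 bases of any kind, then CC, had been searched before it on both strands. It occurred in 50.8% of promoters and at 4 of the 9 starts, with 5 matches in Tlr2, some of them overlapping, 3 in the printed Syk promoter, 1 in this Tlr6 promoter and 1 in Card9, and the stricter pattern was taken after those matches had been seen. GAGGAA, a core bound by the myeloid and B cell factor PU.1, occurred in 28.3% of promoters and at 2 of the 9 starts, a second Syk start and 1 of the 2 Tlr1 starts, and in none of the printed sequences. A match is a description of letters and no evidence of binding.

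Clec4n (ENSMUSG00000023349, chr6:123229843-123247021, plus strand, mm10) was by far highest in neutrophils. Its level there was 348 CPM in the Cd36-/- library (245 to 480) and 305 CPM in the fl/fl library (224 to 407), against 5.27 and 5.86 CPM in macrophages. Neutrophils thus exceeded macrophages 66.2-fold (46.0 to 92.7) in the Cd36-/- library and 52.1-fold (37.6 to 70.7) in the fl/fl library. At least 1 Clec4n UMI was found in 24.8% and 20.9% of neutrophils, and in 3.63% and 4.34% of the far deeper macrophages. T cells, which should lack the gene, held none in 691 and 616 cells at median depths of 2610 and 3220 UMIs, which allows up to 0.434% and 0.487% of cells with a captured UMI and sets no limit on cells that express the gene. Neutrophils were 0.699% and 0.957% of the cells and gave 7.46% and 9.15% of all Clec4n UMIs, while Gata6-low macrophages gave 56.25% and 59.6%.

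Other genes of the C-type lectin branch stood higher in neutrophils as well, among 8 gene lists described below. Of the partner and receptor list, 11 of 13 genes could be compared, and 4 were at least 2-fold higher than in macrophages in both libraries and 0 lower. They were Clec4d and Clec4e, which encode the receptors MCL and Mincle, the adaptor Tyrobp and Clec4a2. Clec4d had 716 and 810 CPM in neutrophils, against 182 and 177 CPM in macrophages. Of the 6 zymosan genes compared, Clec4n and Myd88 were at least 2-fold higher in neutrophils in both libraries, and 0 were lower, beside 14% and 10.4% of all 4826 genes compared. Myd88 rested on 10 and 11 UMIs there, which gave 94.2 and 73.0 CPM in neutrophils against 25.0 and 27.3 CPM in macrophages. Neutrophils also held macrophage markers at a summed 3428 and 3088 CPM, against 8902 and 8210 CPM in macrophages themselves, and the part of other cells' RNA in the neutrophil levels of Myd88 was not tested. Free RNA was estimated at 49.8% and 29.3% of neutrophil UMIs. After its subtraction Myd88 had 153 CPM (Cd36-/-) and 92.1 CPM (fl/fl) in neutrophils, against 25.1 and 27.7 CPM in macrophages.

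Within the macrophages, Clec4n had its highest level in 1 small cluster. This cluster, led by Cx3cr1 with Ccr2 among its leading genes, chemokine receptors known from monocytes, had 117 and 167 cells with 36.4 CPM (Cd36-/-) and 40.03 CPM (fl/fl). All other Gata6-low macrophages together had 4.84 and 5.46 CPM, so the cluster stood 7.53-fold (4.83 to 11.3) and 7.33-fold (5.30 to 9.96) higher. Of the 5 zymosan genes compared, Clec4n was the 1 at least 2-fold higher in both libraries and 0 were lower, beside 2.95% and 5.54% of all genes. Of 11 compared C-type lectin partners, 2 were also at least 2-fold higher there, Clec4a2 and Clec4a3, both among the genes that define it, and 2 were lower, Clec4d and the integrin gene Itgam. Clec4d had 47.7 CPM (Cd36-/-) and 30.4 CPM (fl/fl) in this cluster, against 169 and 178 CPM in the remaining Gata6-low macrophages. This cluster, like the class contrasts named by their leading genes below, was singled out after its values had been seen.

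Tlr2 (ENSMUSG00000027995, chr3:83836272-83841767, minus strand) was a gene of the myeloid cells, and of Gata6-low macrophages more than LPM. It reached 39.7 CPM in Cd36-/- and 33.8 CPM in fl/fl Gata6-low macrophages, and 21.6 and 23.0 CPM in LPM. Neutrophils, with 7 and 4 UMIs, had 65.9 CPM (26.5 to 136) and 26.6 CPM (7.24 to 68.0). Levels in B-1 cells (8.12 and 7.40 CPM) and in T cells (0.497 and 3.20 CPM) were lower. Macrophages exceeded B cells 4.30-fold (3.54 to 5.29) in the Cd36-/- library and 4.63-fold (3.92 to 5.50) in the fl/fl library. The gene was thus higher in Gata6-low macrophages, but at 0.54-fold and 0.68-fold the LPM level did not pass the 2-fold limit. With cells gated on markers the LPM level was 0.62-fold (Cd36-/-) and 0.70-fold (fl/fl).

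A cluster of LPM led by the chemokine genes Cxcl2 and Cxcl1 was the exception among the LPM. Its 124 and 79 cells had 54.0 CPM of Tlr2 in the Cd36-/- library and 80.5 CPM in the fl/fl library, against 20.3 and 21.2 CPM in the other LPM. These are folds of 2.66 (1.99 to 3.49) and 3.79 (2.87 to 4.94). Of the zymosan genes, 1 of 4 compared was 2-fold higher in both libraries and 0 lower, beside 0.499% and 0.454% of the 4406 genes compared. Cd14 was 1.21-fold and 1.55-fold higher in the cluster, while Syk stood at 0.81-fold and 0.85-fold with intervals that reach 1. All 5 of the early target genes that could be compared, out of 14, were at least 2-fold higher: Il6, Cxcl1, Cxcl2, Nr4a1 and Nfkbiz. Of the 6 inhibitors compared, Tnfaip3 and Nfkbia, which NF-kappaB induces and which hold it back, were at least 2-fold higher. Tnfaip3 had 30.8 CPM (Cd36-/-) and 63.6 CPM (fl/fl) in the cluster, against 7.34 and 8.33 CPM in the other LPM. The cells had been grouped by genes such as Cxcl1 and Cxcl2, so these values describe the cluster and are no test of it.

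The partners of Tlr2 did not share 1 pattern. Tlr1 (ENSMUSG00000044827, chr5:64924679-64933563, minus strand) was scarce in LPM, at 3.99 CPM (Cd36-/-) and 4.04 CPM (fl/fl), and had 11.9 and 11.8 CPM in Gata6-low macrophages. LPM therefore held 0.34-fold the Gata6-low level in both libraries (0.27 to 0.41 and 0.27 to 0.42). With cells gated one by one on markers in place of clusters, Tlr1 had 8.29 CPM (Cd36-/-) and 7.74 CPM (fl/fl) in LPM and 15.2 and 14.7 CPM in Gata6-low macrophages, or 0.54-fold and 0.53-fold, so the size of this gap depends on how the cells are grouped. B-2 cells, the follicular type, had 21.1 CPM (16.5 to 26.7) and 18.9 CPM (15.6 to 22.6), and B-1 cells had 12.3 and 10.7 CPM. Neutrophils held 1 and 3 Tlr1 UMIs, too few to be ranked. Tlr6 (ENSMUSG00000051498, chr5:64952031-64960097, minus strand) was, like Tlr2, higher in Gata6-low macrophages than LPM, with 11.3 and 14.5 CPM in Gata6-low macrophages, 8.76 and 9.29 CPM in LPM, and 1.49 and 2.29 CPM in T cells. In the Cxcl2-led LPM cluster, where Tlr2 was high, Tlr6 was not, at 6.52 CPM (Cd36-/-) and 9.09 CPM (fl/fl) against 8.85 and 9.29 CPM in the other LPM, or 0.74-fold (0.29 to 1.54) and 0.98-fold (0.39 to 2.05). Tlr1 and Tlr6 lie side by side on chromosome 5. Of the short sequence words at the 3′ ends of Tlr1 transcripts, 6.58% also occur somewhere in transcripts of another gene, with Tlr6 sharing most. For the 3′ ends of Tlr6 transcripts the share was 1.49%, with Ctsq sharing most. Whether reads of Tlr1 and Tlr6 were mistaken for each other was not tested.

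Cd14 (ENSMUSG00000051439) was high in macrophages and, in the fl/fl library, in neutrophils as well. LPM had 237 CPM in the Cd36-/- library and 218 CPM in the fl/fl library, Gata6-low macrophages 196 CPM in each, and MHC class II macrophages 129.6 and 121 CPM. Neutrophils had 75.4 CPM (32.5 to 148, 8 UMIs) and 186 CPM (124 to 269, 28 UMIs), or 0.359-fold (0.155 to 0.708) and 0.917-fold (0.609 to 1.33) the macrophage level. Macrophages exceeded B cells 23.0-fold (19.3 to 27.7) and 27.6-fold (23.8 to 32.3). A Cd14 UMI was seen in 70.1% of Cd36-/- and 71.2% of fl/fl macrophages, and in 3.47% and 1.62% of T cells, which should lack the gene and had 11.9 and 4.57 CPM at median depths of 2610 and 3220 UMIs. cDC2, type 2 dendritic cells, had 43.2 and 25.1 CPM, or 0.206-fold and 0.124-fold the macrophage level. Cd14 was the 1 of 4 genes compared that was 2-fold lower in cDC2 than in macrophages in both libraries and 0 were higher, beside 12.1% and 6.75% of all genes. Tlr4 (ENSMUSG00000039005, chr4:66827584-66930284, plus strand) had nearly the same level in LPM (16.8 and 16.97 CPM) as in Gata6-low macrophages (17.6 and 17.95 CPM). Neutrophils held 3 and 8 Tlr4 UMIs, which gave 28.3 CPM (5.83 to 82.6) and 53.1 CPM (22.9 to 105), or 1.63-fold (0.34 to 4.77) and 3.02-fold (1.30 to 5.98) the macrophage level, too few to be ranked. It was low in cDC2, at 5.90 and 3.65 CPM, and in T cells, at 1.49 and 0.46 CPM.

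Of the 4 zymosan genes with at least 20 CPM in both libraries, 0 were 2-fold higher and 0 were 2-fold lower in LPM than in Gata6-low macrophages, beside 3.27% and 2.58% of 4648 genes. At a limit of 5 CPM, 0 of 9 were higher and 1 of 9 lower, Tlr1, beside 4.21% and 2.26% of 8506 genes. With cells gated on markers Tlr1 does not pass, but Clec4n does. In that gate LPM held 0.37-fold (Cd36-/-) and 0.49-fold (fl/fl) the Gata6-low level of Clec4n, against 1.02-fold and 0.75-fold by cluster. Against B cells, macrophages were at least 2-fold higher for 2 of 4 genes, Tlr2 and Cd14, and lower for 1, Syk, beside 22.7% and 9.6% of 4970 genes. At a limit of 5 CPM, 6 of 9 were higher and 1 lower, beside 20.7% and 10% of 8929 genes. The Folr2-led Gata6-low cluster set against the Marco-led LPM cluster, the biggest of each type, had 0 of 5 genes 2-fold higher and 0 lower in both libraries, beside 2.97% and 3.06% of all genes, with Tlr2 at 2.32-fold and 1.79-fold.

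**Figure D1:**
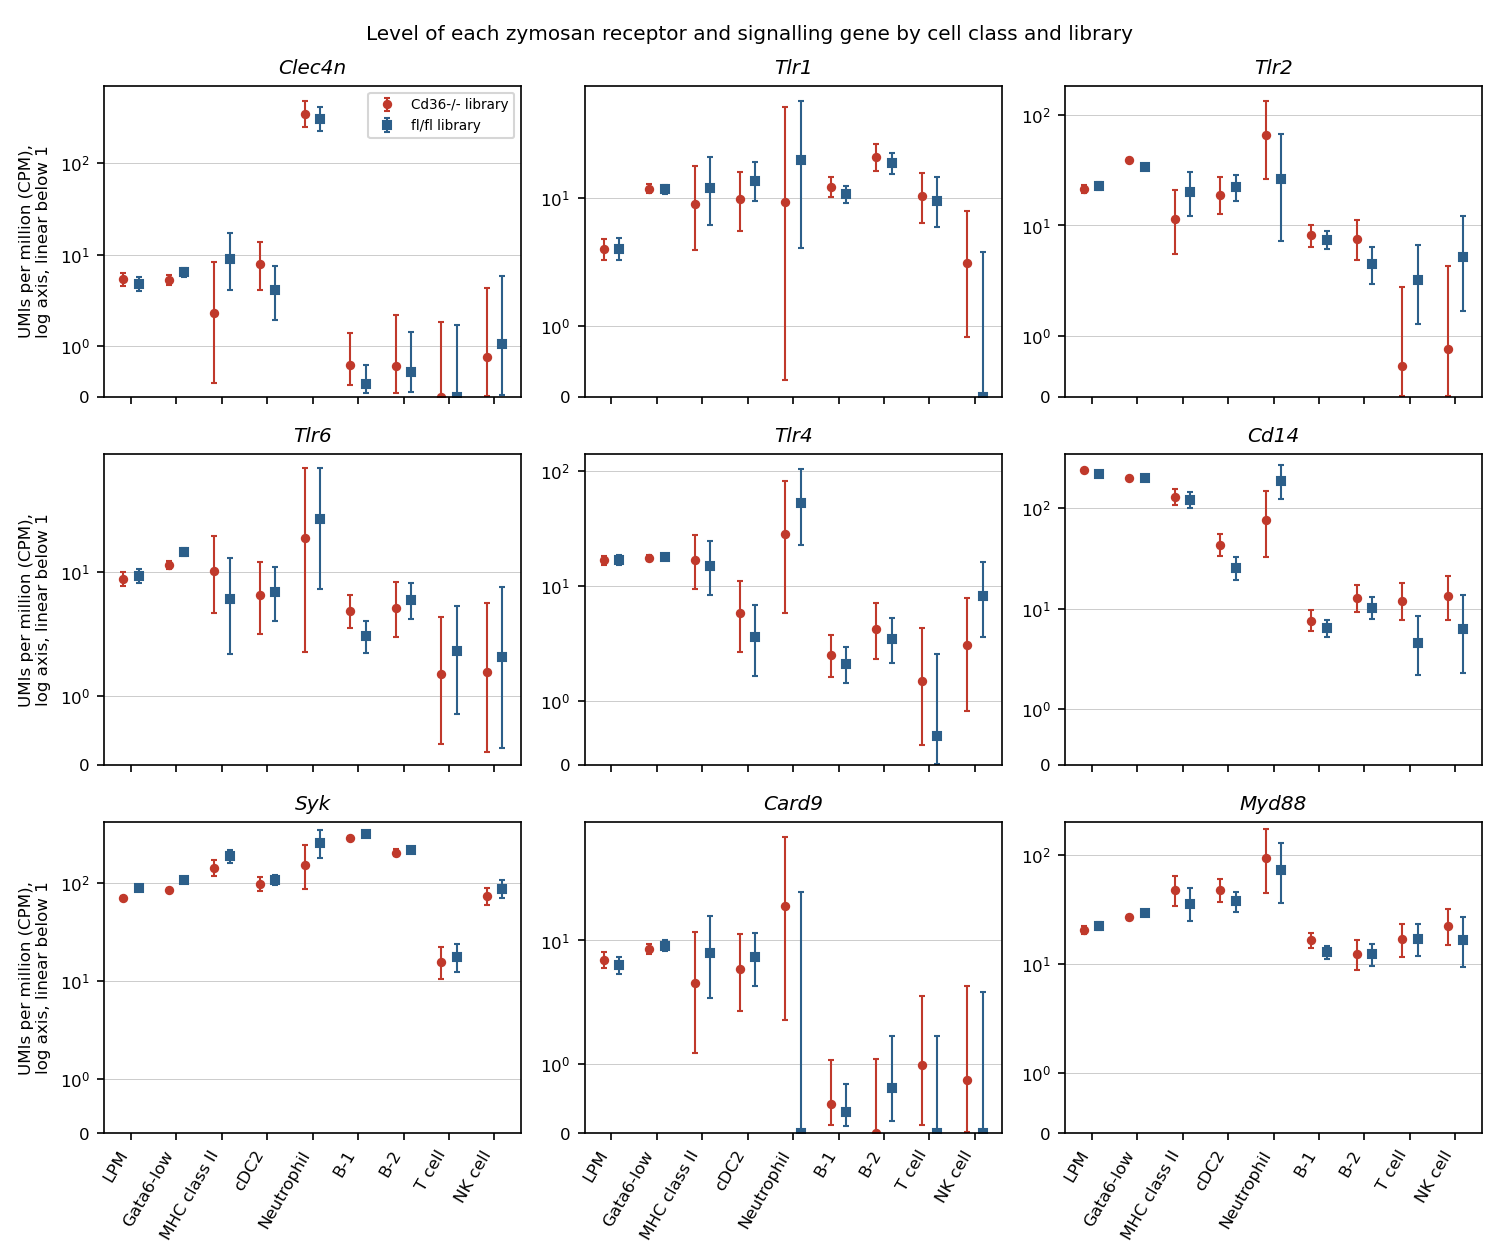
Level of each gene in UMIs per 1000000 (CPM, log axis that is linear below 1) in 9 cell classes, with the Cd36-/- library as red circles left of the fl/fl library as blue squares. Bars are exact 95% Poisson intervals. Clec4n stands highest in neutrophils (348 and 305 CPM), Cd14 in LPM (237 and 218 CPM) and Syk in B-1 cells (289 and 313 CPM).

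Downstream of the receptors, Syk (ENSMUSG00000021457, chr13:52583173-52648792, plus strand) was most abundant in B-1 cells, where the kinase serves the B cell receptor, followed by B-2 cells and neutrophils. B-1 cells had 289 CPM in the Cd36-/- library and 313 CPM in the fl/fl library, and B-2 cells had 203 and 215 CPM. Neutrophils had 151 CPM (86.1 to 245, 16 UMIs) and 252 CPM (179 to 346, 38 UMIs), intervals that hold the B-2 levels. Macrophages had 80.6 and 102 CPM, or 0.306-fold and 0.359-fold the level of all B cells. T cells, which rely on the related kinase Zap70, had 15.4 and 17.4 CPM, so B cells exceeded them 17.1-fold (12.03 to 25.2) and 16.4-fold (11.9 to 23.1). It was the 1 gene compared there, with 8.01% of all genes 2-fold higher and 8.08% lower, and at 0.702-fold and 0.687-fold B-2 cells did not pass 2-fold against B-1 cells (2.76% higher and 2.26% lower of all genes). Card9 (ENSMUSG00000026928, chr2:26352176-26360918, minus strand) was a myeloid gene at a low level, with 8.58 and 9.10 CPM in Gata6-low macrophages and 6.96 and 6.35 CPM in LPM, and 0.297 and 0.384 CPM in B cells. Myd88 (ENSMUSG00000032508, chr9:119335934-119341411, minus strand) was present in myeloid and lymphoid classes alike. It had 27.0 and 29.7 CPM in Gata6-low macrophages, 16.7 and 12.8 CPM in B-1 cells and 16.9 CPM in T cells of both libraries. In cDC2 it had 47.8 and 37.7 CPM. Myd88 overlaps Slc22a14 on the same strand and Acaa1a on the opposite strand, and reads in the shared stretches may be counted for either gene or for none.

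The comparison the study was built for, Cd36-/- against fl/fl, showed small differences in macrophages. Of the 9 genes, 4 had at least 20 CPM in macrophages of 1 library or both (Tlr2, Cd14, Syk and Myd88), and 0 of them differed 1.5-fold either way, beside 0.653% of all 4597 genes. Their median log2 ratio (Cd36-/- over fl/fl) was -0.04, against -0.01 for all genes compared. At a limit of 5 CPM all 9 were compared, 0 passed 1.5-fold, beside 0.831% of 8424 genes, and the median of the 9 was -0.03, equal to the -0.03 of all genes. Within LPM 0 of 4 passed (0.901% of all genes), and within Gata6-low macrophages 0 of 4 (0.977%).

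Syk was lower in Cd36-/- macrophages. Its level was 80.6 CPM in Cd36-/- macrophages (6628 UMIs) and 102 CPM in fl/fl macrophages (7504 UMIs), a log2 ratio of -0.34 (-0.39 to -0.29). Among the 4597 genes compared, 1.96% had a lower ratio, and the central 90% of genes lay between -0.25 and 0.21. LPM gave the same value, with 69.9 and 88.4 CPM and a log2 ratio of -0.34 (-0.43 to -0.25), and so did Gata6-low macrophages, with 85.3 and 107.7 CPM and -0.34 (-0.39 to -0.28). The ratio was below 0 in each of the 10 macrophage clusters, from -0.51 in the Aif1-led cluster to -0.19 in the Chil3-led cluster, and the interval lay wholly below 0 in 8 of them. With every cell thinned to 1000 UMIs, a Syk UMI was found in 7.55% of 9783 Cd36-/- macrophages (7.04 to 8.10) and 10.2% of 7750 fl/fl macrophages (9.55 to 10.9), after 94 and 83 shallower cells had been left out. Without thinning the shares were 45.8% and 56.5%, against 3.76% and 5.52% of T cells.

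Outside LPM and Gata6-low macrophages the Syk ratio depended on how the cells were grouped, also in MHC class II macrophages. By cluster, each of the 9 classes had a ratio below 0, among them B-1 cells, with 289 CPM (Cd36-/-) and 313 CPM (fl/fl), a log2 ratio of -0.11 (-0.18 to -0.04). MHC class II macrophages had -0.39 (-0.73 to -0.06), cDC2 -0.12 (-0.42 to 0.18), and NK cells -0.26 (-0.70 to 0.18). With cells gated on markers, the ratio was 0.02 (-0.08 to 0.12) in B-1 cells, 0.02 (-0.48 to 0.50) in cDC2 and 0.01 (-0.58 to 0.58) in MHC class II macrophages, and it stayed below 0 in the other 6 classes, with -0.33 in LPM and -0.30 in Gata6-low macrophages. Whether the macrophage ratio differs from that of B cells beyond the spread between animals cannot be tested with 1 library per group.

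Tlr2 was slightly higher over all Cd36-/- macrophages, at 33.2 CPM against 29.9 CPM in fl/fl macrophages, a log2 ratio of 0.15 (0.07 to 0.23). By cluster the ratio was above 0 in 5 of 10 and below 0 in 5, with the interval wholly above 0 in 2 and wholly below 0 in 1. Gata6-low macrophages had 39.7 CPM (Cd36-/-) and 33.8 CPM (fl/fl), a log2 ratio of 0.23 (0.14 to 0.33), and 4.08% of the 4607 genes compared there had a higher one. The Folr2-led and Aif1-led clusters gave 0.39 (0.25 to 0.53) and 0.41 (0.19 to 0.63), while the cycling Gata6-low cluster gave -0.01 (-0.26 to 0.25). In LPM the ratio was -0.09 (-0.26 to 0.07), and in the Cxcl2-led LPM cluster, where 58 and 62 UMIs were counted, it was -0.57 (-1.12 to -0.03). When cells were gated on markers, a gate that put 6649 and 4432 cells among the LPM, the LPM ratio was 0.14 and the Gata6-low ratio 0.33.

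Tlr6 differed the other way. It had 11.3 CPM in Cd36-/- and 14.5 CPM in fl/fl Gata6-low macrophages, a log2 ratio of -0.36 (-0.52 to -0.20), and -0.08 (-0.35 to 0.18) in LPM. With cells gated on markers the ratio was -0.25 in Gata6-low macrophages and -0.26 in LPM. Over all macrophages the ratio was -0.27 (-0.41 to -0.14), at 10.4 and 12.6 CPM, both under the 20 CPM limit, and 5.14% of the 8424 genes above 5 CPM had a lower one. Clec4n had 5.27 CPM (Cd36-/-) and 5.86 CPM (fl/fl) over all macrophages and a ratio of -0.15 (-0.35 to 0.04). Tlr1 had 9.13 and 9.10 CPM and a ratio of 0.01 (-0.15 to 0.16). Tlr4 had 17.3 and 17.6 CPM and a ratio of -0.02 (-0.13 to 0.09), and Card9 had 7.98 and 8.13 CPM and a ratio of -0.03 (-0.19 to 0.13). For Tlr1, Tlr4 and Card9 the intervals hold 0, and none reaches beyond -0.19 or 0.16 on the log2 scale.

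Cd14 was nearly level over all macrophages, at 209.6 CPM (Cd36-/-) and 202.8 CPM (fl/fl), a log2 ratio of 0.05 (0.02 to 0.08). The Alox15-led LPM cluster stood apart from the other large clusters, with 316 and 237 CPM and a ratio of 0.41 (0.31 to 0.52). The Marco-led LPM cluster had 216 and 217 CPM and a ratio of -0.00 (-0.07 to 0.06). Card9 was also higher in Alox15-led cells, with 8.17 and 4.23 CPM from 57 and 20 UMIs. Some other genes of this cluster moved with them: Alox15 itself had 2811 CPM (Cd36-/-) and 1805 CPM (fl/fl), the complement gene C1qa 3883 and 2584 CPM, and Retnla 305 and 46.5 CPM. Others did not: Adgre1 had 691 and 678 CPM, Gata6 116 and 128 CPM, and Marco 248 and 258 CPM. Whether the cluster holds like cells in both libraries was not tested. Myd88 had 25.0 and 27.3 CPM in macrophages, a ratio of -0.13 (-0.22 to -0.04), with -0.14 in both LPM and Gata6-low macrophages, and 19.3% of genes had a lower one.

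**Figure D2:**
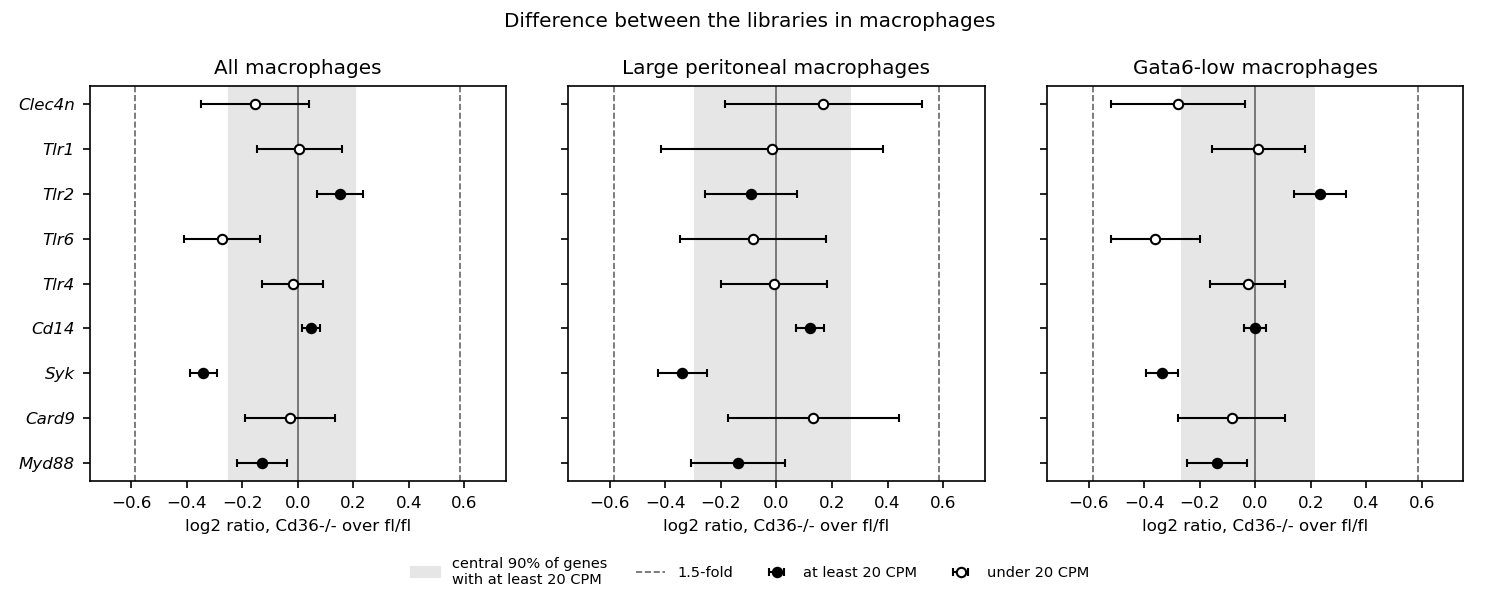
Log2 ratio of each gene, Cd36-/- over fl/fl, in all macrophages, LPM and Gata6-low macrophages, with exact 95% intervals for counting error. The grey band holds the central 90% of genes with at least 20 CPM, dashed lines mark 1.5-fold, and open circles are genes under 20 CPM. Syk lies below the band in each panel at -0.34, and Tlr2 above it in Gata6-low macrophages at 0.23. Among the open circles, Tlr6 lies below it in all macrophages (-0.272) and in Gata6-low macrophages (-0.36). Clec4n lies below it in Gata6-low macrophages (-0.278). For genes with at least 5 CPM, the central 90% begins at -0.275 in all macrophages and at -0.290 in Gata6-low macrophages. Of these open circles, only Tlr6 in Gata6-low macrophages lies below that wider range.

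**Figure D3:**
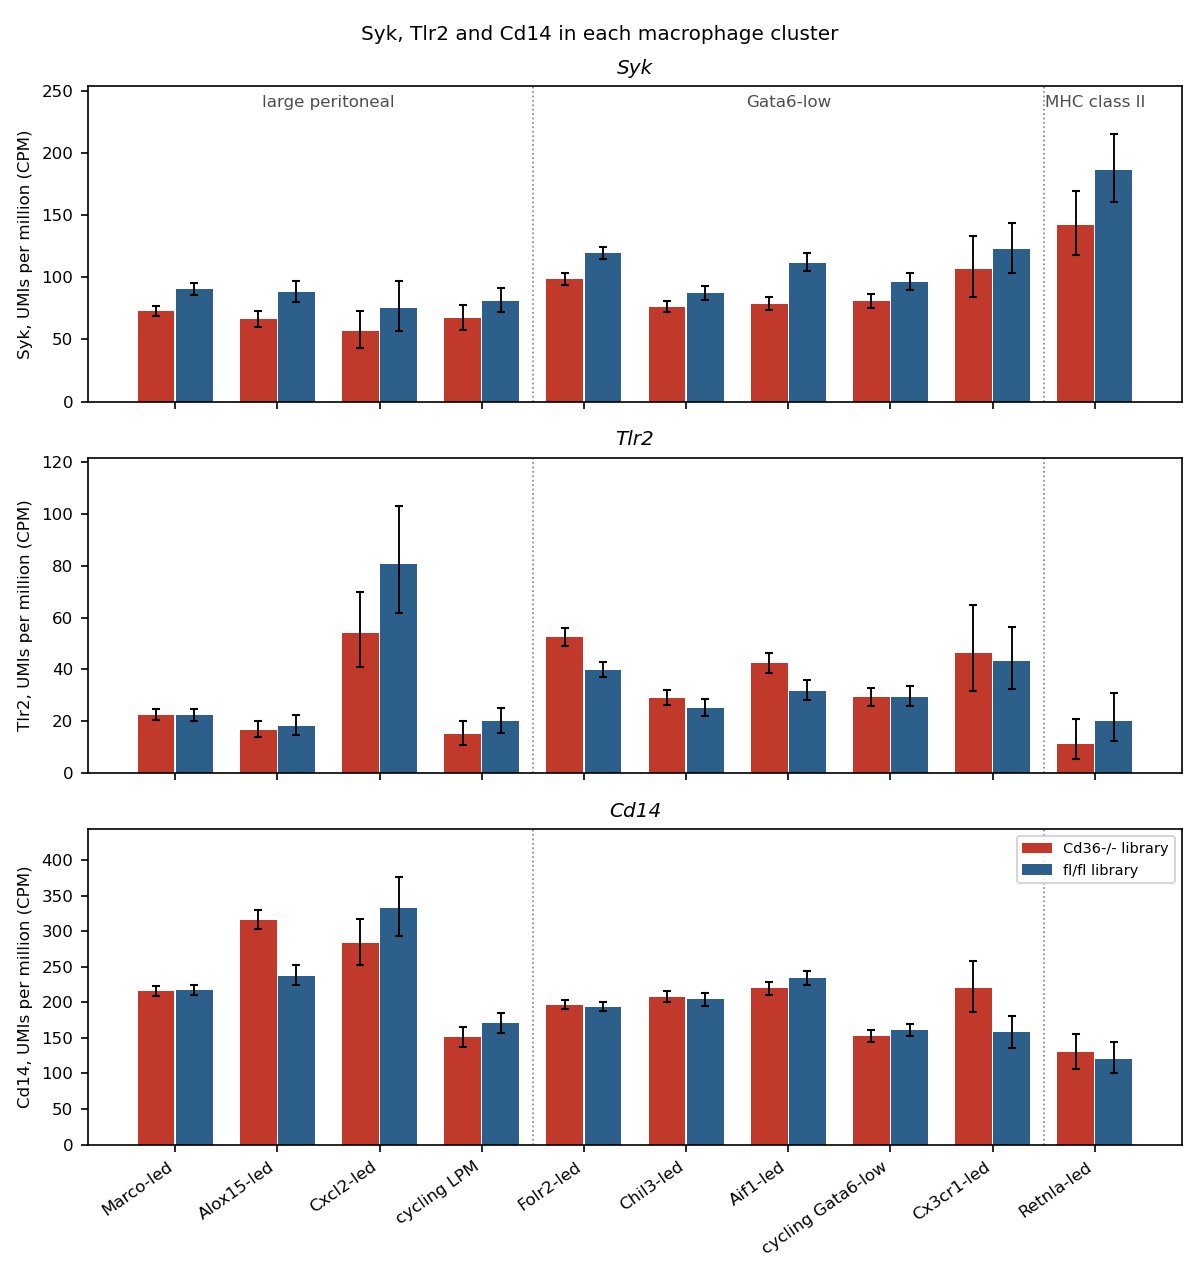
Levels of Syk, Tlr2 and Cd14 in UMIs per 1000000 (CPM) in the 10 macrophage clusters, Cd36-/- in red left of fl/fl in blue, with exact 95% Poisson intervals. Syk is lower in the Cd36-/- library in all 10 clusters, Tlr2 is highest in the Cxcl2-led cluster (54.0 and 80.5 CPM), and Cd14 differs most among the larger clusters in the Alox15-led cluster (316 and 237 CPM).

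Outside LPM and Gata6-low macrophages, 19 comparisons of a gene in a class had at least 20 CPM, over 7 classes, and 5 passed 1.5-fold, beside 14.2% of all such comparisons over genes and classes. At a limit of 5 CPM, 18 of 47 passed, beside 23%. At 20 CPM, 8 of 22 passed with cells gated on markers, 8 of 30 with the 50 highest genes left out of the total and 8 of 20 with free RNA subtracted, beside 20.4%, 17.1% and 23.1% of all such comparisons. These shares pool the classes and were not matched to the class mix of the zymosan genes, in which neutrophils gave 7 of the 19 comparisons. Of the 5 calls, 4 came from the 7 comparisons in neutrophils, where 49.4% of all genes passed the same limit, so that share is near the background. There Tlr2 was higher (7 and 4 UMIs) and Tlr4 (3 and 8 UMIs), Cd14 (8 and 28 UMIs) and Syk (16 and 38 UMIs) were lower in the Cd36-/- library. The fifth was Cd14 in cDC2, 43.2 CPM (Cd36-/-) against 25.1 CPM (fl/fl), a log2 ratio of 0.78 (0.26 to 1.31), in a class where 7.14% of genes passed. Summed macrophage markers in cDC2 moved with it, at 1282 CPM in the Cd36-/- library and 886 CPM in the fl/fl library, with 0 of the 9 at 0, and their part in the result was not tested. After subtraction of free RNA the levels were 2.53 CPM (Cd36-/-) and 3.43 CPM (fl/fl), a ratio of -0.44. None of 3 comparisons passed in MHC class II macrophages (15.6% of all genes), 0 of 1 in B-1 cells (1.6%), 0 of 2 in B-2 cells (1.98%) and 0 of 2 in NK cells (11.8%). Clec4n in neutrophils gave 0.19 (-0.47 to 0.85). That ratio ran from -1.28 (-2.41 to -0.25), at 500 genes per cell, to 0.64 (-0.13 to 1.40), with cells gated on markers, and kept its sign in 8 of 12 alternatives, so no direction can be read from it.

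The genes around the receptors were read from 8 lists, by their role. C-type lectin partners and receptors had 11 of 13 genes above 20 CPM in macrophages, 8 with a ratio above 0 and 3 below, 0 past 1.5-fold, and a median log2 ratio of 0.06. Fcer1g, the signalling chain of Clec4n, was highest, with 2258 CPM in Cd36-/- and 1973 CPM in fl/fl macrophages (0.19), and the mannose receptor Mrc1 lowest, with 30.0 and 38.0 CPM (-0.34). C-type lectin signalling had 15 of 20 genes compared, 6 above and 9 below 0, with a median of -0.05; in LPM 12 of 16 and in Gata6-low macrophages 12 of 15 lay below 0, with medians of -0.09 and -0.05 beside -0.01 and -0.02 for all genes. In it Plcg2, a phospholipase that Syk phosphorylates, was lowest, with 37.4 CPM in Cd36-/- and 45.1 CPM in fl/fl macrophages (-0.27).

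Of the Toll-like receptor partners, 8 of 8 were compared, 3 above and 5 below 0, with a median of -0.10. Ly96, which encodes MD-2, the subunit that binds lipopolysaccharide beside Tlr4, had 76.6 CPM in Cd36-/- and 60.9 CPM in fl/fl macrophages, a log2 ratio of 0.33 (0.28 to 0.39), and was higher in both LPM (0.35) and Gata6-low macrophages (0.32). Cd36 was lowest, at -0.50 (-0.53 to -0.47), and in LPM, with 180 and 277 CPM, it passed 1.5-fold at -0.62. Of the other Toll-like receptors, Tlr13, which senses bacterial ribosomal RNA, was the 1 of 8 above 20 CPM, with 30.0 and 32.4 CPM (-0.11).

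In the signalling arms 0 genes passed 1.5-fold. The MyD88 arm had 9 of 17 genes compared, 3 above and 6 below 0, with a median of -0.04, between Ube2n at 0.09 and Tab2 at -0.15, and the TRIF arm had 3 of 6 compared, between Tbk1 at 0.00 and Irf3 at -0.10. Of the inhibitors, 5 of 9 were compared, 2 above and 3 below 0, with a median of -0.01. In LPM 0 were above and 5 below 0, with a median of -0.32 beside -0.01 for all genes, and in Gata6-low macrophages 3 were above and 2 below, with a median of 0.06. Dusp1, a phosphatase that inactivates MAP kinases, had 162 CPM (Cd36-/-) and 203 CPM (fl/fl) in LPM (-0.33), and 142 and 122 CPM in Gata6-low macrophages (0.23). Nfkbia, the inhibitor of NF-kappaB, was lowest in this list, with 254 CPM in Cd36-/- and 323 CPM in fl/fl macrophages, a log2 ratio of -0.34 (-0.37 to -0.32), and Irak3 highest at 0.06. Of 14 early targets, Cxcl2 alone reached 20 CPM, with 49.4 and 35.1 CPM (0.49), and in Gata6-low macrophages it had 32.3 and 18.7 CPM and passed 1.5-fold at 0.79. Tnf was near 0 in both libraries, at 0.560 and 0.612 CPM, as was Il12b, at 1 UMI in each.

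**Figure D4:**
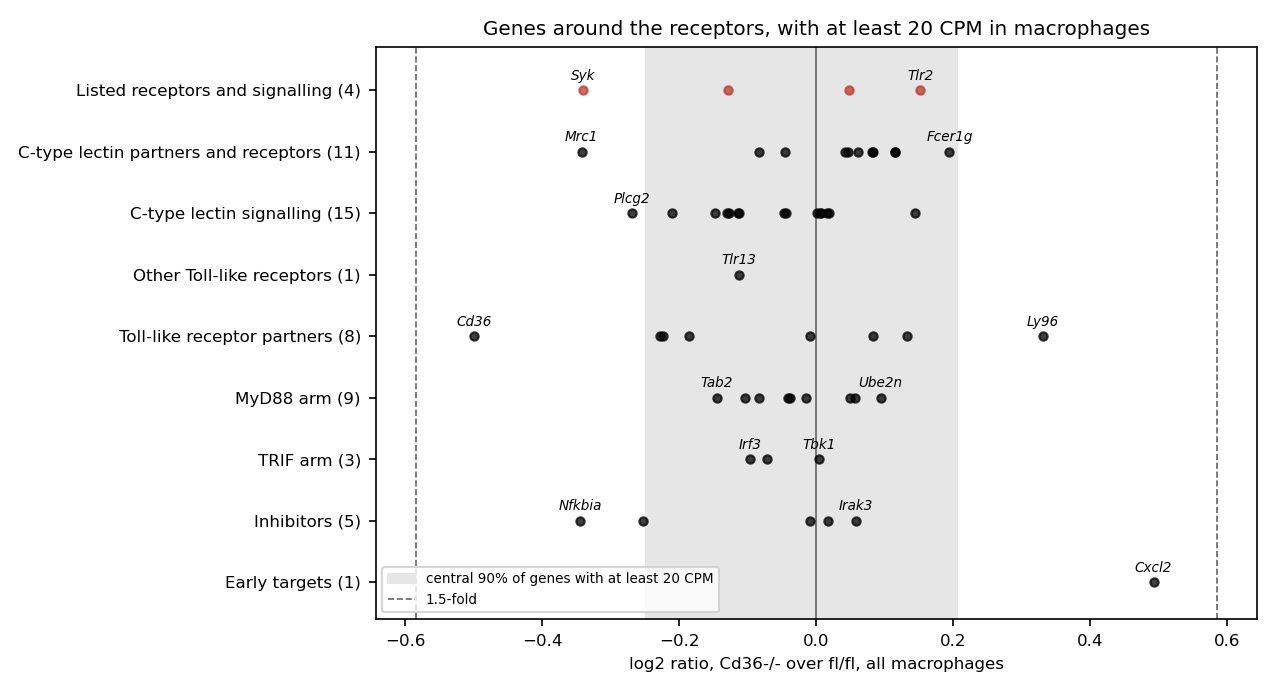
Log2 ratio in all macrophages, Cd36-/- over fl/fl, of each listed gene with at least 20 CPM, 1 row per list, below a row for the 4 zymosan genes in red, with the number of genes in brackets and genes at the ends of the lists named. The grey band is the central 90% of all genes and dashed lines mark 1.5-fold; Syk, Mrc1 and Nfkbia lie near -0.34, Ly96 at 0.33, Cd36 at -0.50 and Cxcl2 at 0.49.

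Across the 18 clusters with at least 100 cells in each library (unnamed ones included and the Cxcl2-led cluster, with 79 fl/fl cells, left out; 36 points, 1 per cluster and library), the genes fell into those that tracked each other and those that did not. As a description, Pearson's r of log2(CPM + 1) was 0.88 between Tlr2 and Tlr6, 0.86 between Tlr4 and Cd14, and 0.80 between Tlr2 and Tlr4. Syk gave r between -0.11 and 0.33 with each of the others, and Tlr1 gave 0.29 with Tlr2. These points share libraries and differ in depth. By the same measure over 6846 genes, the most alike of Cd14 were Fgd4 (0.98), Csf1r (0.98) and Lamp2 (0.98), those of Tlr2 were Csf2rb2 (0.92), Zfp710 (0.92) and Sirpa (0.91), and those of Tlr6 were Tirap (0.94), Cop1 (0.92) and Ncf1 (0.92). Syk was most like Lpgat1 (0.91), followed by Pkig and Swap70 (0.79 each), Tlr4 most like Pgd (0.93), Clec4n most like Taldo1 (0.92), Card9 most like Deptor (0.92), Myd88 most like Zbtb7b (0.91), and Tlr1 most like Ankrd37 (0.77).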

How the data were processed

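Per the labels' protocols, 2 pools of 4 replicates were sequenced as 1 library each, and the authors deposited raw UMI counts per gene and barcode. Cell Ranger and mm10 are named in the submitters' processing notes, and the matrices name software version 3.0.0, per the file headers. The annotation release is not given in the sources used here; positions come from GENCODE M21.

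Barcodes under 200 genes or over 10% mitochondrial UMIs were left out, and Scrublet (scanpy 1.11.5) removed 977 (6.11%) and 728 (4.94%) doublets. Both libraries were clustered together (2000 variable genes, 40 components, 20 neighbours, Leiden resolution 1, leidenalg 0.10.2) without the 9 genes, Cd36, Lyz2 and sex-linked, mitochondrial, ribosomal, immunoglobulin and T cell receptor variable genes. A cluster that mixed cDC2 with macrophages was split at resolution 0.2, chosen after the data had been seen, gene levels included, and after 0.4 had also been tried. Clusters were named from 25 marker lists.

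Raw counts were summed per class and library and divided by the class total (CPM). Levels have exact Poisson, ratios exact conditional binomial and shares Clopper-Pearson intervals. Genes needed 20 CPM, in 1 library for a library ratio and in 1 class of both libraries for a class contrast. The ratio step alone was tested on simulated macrophage counts, with planted changes larger than the 1.5-fold limit and no differences between animals. Clustering, class naming, marker gating, thinning and free RNA subtraction were not simulated. All members are described; of each pathway list the highest and lowest gene are named, with Cd36 and genes past 1.5-fold (1 item under this rule is not reported here), and others named, such as Clec4d, Clec4a2, Tnfaip3, Tnf and Il12b, were chosen after their values were seen. The limits of the marker gate used as an alternative were set after the data had been seen, as were the contrasts other than LPM over Gata6-low macrophages and macrophages over B cells. Members and lists were chosen with earlier results of these data known.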

Additional observations from a re-analysis of the deposited data

Results flagged for a closer look

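Of the 9 genes, 4 had log2 ratios (Cd36-/- over fl/fl) of opposite sign in LPM and Gata6-low macrophages, with 1 library on each side, and these differences between the macrophage types were not tested. Tlr2 had -0.092 in LPM and 0.23 in Gata6-low macrophages. Clec4n had 0.17 in LPM and -0.28 in Gata6-low macrophages, at levels between 4.78 and 6.38 CPM. Card9 had 0.13 in LPM and -0.085 in Gata6-low macrophages, and Tlr1 had -0.016 and 0.012, values that are within counting error of 0. The pattern depends on how the cells are grouped: with cells gated on markers, Tlr2 (0.14 in LPM and 0.33 in Gata6-low macrophages) and Tlr1 (0.10 and 0.05) had the same sign in both types, Clec4n turned to -0.32 in LPM and 0.11 in Gata6-low macrophages, Card9 had 0.03 and -0.35, and Cd14 differed in sign, at 0.04 and -0.06.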

How the results depend on the processing

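With 1 library per group there is no replicate to leave out, and intervals hold counting error only, so differences between animals cannot be judged. No paired analysis was possible because each group holds 1 pooled library. The count of 0 genes past 1.5-fold in macrophages stayed at 0 under each alternative run. The 5 calls of 19 outside LPM and Gata6-low macrophages, mostly in neutrophils with few UMIs, became 8 of 22 with cells gated on markers (20.4% of all genes and classes), 8 of 30 with the 50 highest genes left out of the total (17.1%), 8 of 20 with free RNA subtracted (23.1%) and 18 of 47 at a limit of 5 CPM (23%). The shares in brackets were not matched to the class mix of the zymosan genes. At 5 CPM, genes 2-fold lower in LPM than Gata6-low macrophages numbered 1 of 9 (Tlr1) in place of 0 of 4, beside 2.26% of all genes, and those 2-fold higher in macrophages than B cells numbered 6 of 9 in place of 2 of 4, beside 20.7%; the 5 CPM limit for these contrasts and the removal of cycling clusters were added after the data had been seen. The log2 ratio of Cd14 changed sign in neutrophils at 500 genes per cell (0.35 in place of -1.30) and in cDC2 after free RNA subtraction (-0.44 in place of 0.78); the cause was not tested. Ratios of genes above 20 CPM kept their sign in 23 of 28 cases at 500 genes per cell, 24 of 30 with cells gated on markers, 28 of 30 with free RNA subtracted, and 29 to 31 of 31 otherwise. The Syk ratio ran from -0.36 to -0.31 in all macrophages, that of Tlr2 from 0.22 to 0.33 in Gata6-low macrophages and from -0.16 to 0.14 in LPM. No MHC class II macrophage class was found at 500 genes per cell. Neutrophils are shallow (14 and 34 cells reach 1000 UMIs), which limits what can be read there.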
